A study of Homo sapiens with 6 samples.

Results

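The C/EBP transcription factors were followed in OVCAR5 cells by the RNA levels of 5 genes, CEBPA, CEBPB, CEBPD, CEBPG and CEBPZ. They were chosen by name, and all 5 were found among the 29982 gene symbols of the deposited expression table, each in 1 row. OVCAR5 is an established human cancer cell line that the labels assign to the ovary. Total RNA was sequenced in 6 libraries, 2 from cells given the vehicle dimethyl sulfoxide (DMSO), 2 from cells given 10 μM SpiD7 for 2 h, 1 for 6 h and 1 for 12 h. SpiD7 is a spirocyclic dimer that was made to modify surface-exposed cysteines of proteins covalently and was tested as an activator of the unfolded protein response. The cells of every group were grown in DMEM high glucose medium with 10% FBS, the labels give no duration for the vehicle, and nothing in them says that the libraries of a group came from separate cultures, so that p-values here measure only the spread between these libraries. Levels are FPKM (fragments relative to transcript length and to the mapped reads of the library), a scale per length on which genes can be compared with each other.

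C/EBP proteins bind DNA through a basic region and pair through a leucine zipper. C/EBPα slows proliferation and directs differentiation in fat, liver and myeloid cells, C/EBPβ and C/EBPδ are inducible factors of inflammation and the acute phase, and C/EBPγ is a short member that lacks the usual activation domain and works through its partners. In the stress response that runs through the kinase PERK, the factor ATF4 pairs with C/EBP proteins on composite elements of amino acid and stress genes, and the C/EBP homologous protein CHOP, encoded by DDIT3, is its well known downstream member. CEBPZ carries the family symbol but is a CCAAT-binding and nucleolar assembly factor without the leucine zipper.

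The table names columns for the first DMSO and 2 h libraries, that of DMSO again in the 6 h and 12 h comparisons. The columns named for replicate 2 of these groups behaved as the authors' means of both libraries, and replicate 2 was recovered by subtracting the first library. Values called recovered rest on that reading. The lack of replicates at 6 h and 12 h means that each of these libraries was set against both DMSO libraries, which all 3 time points share. Epithelial markers (9 of 9 listed) summed to 3795 and 4220 FPKM in the DMSO libraries and to between 3234 and 4835 after SpiD7. The ovarian lineage markers PAX8, WT1 and MUC16 summed to only 1.99 and 2.47 FPKM in DMSO and to between 1.96 and 2.58 after SpiD7, so that the labelled ovarian origin was not visible in them. The 4 leukocyte markers summed to 5.07 and 6.83 FPKM in DMSO and to between 4.23 and 13.1 after SpiD7, with CD3E at 0 in every library. Most of this sum came from CD14 (DMSO 4.08 and 4.96, 12 h 9.36) and LYZ (DMSO 0.961 and 1.85, 12 h 3.70). Both exceeded the DMSO mean more than 2-fold in the single 12 h library, as did 6.48% of all genes tested, and neither did so at 2 h or 6 h. The 12 h count depended on the reference. On log2(FPKM + 0.1), CD14 and LYZ were 1.18 and 1.84 above the first DMSO library. They were 0.90 and 0.96 above the recovered one, so that neither was past 2-fold there. The 4 fibroblast and endothelial markers summed to 1.35 and 12.9 in DMSO and to between 1.54 and 9.75 after SpiD7. PECAM1 made up most of the 12.9, with 10.7 FPKM in the recovered DMSO library against 0.736 in the first. The part of these markers in the results was not tested. In bulk RNA, fewer cells that express a gene and less RNA per cell cannot be told apart.

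The order of the 5 genes by level was the same at its lower end in every library and changed at its upper end. CEBPA was the lowest in each of the 6 libraries, between 1.89 and 5.39 FPKM. CEBPZ was the highest in 5 of the 6, between 33.1 and 49.2 FPKM, and was passed by CEBPD in the recovered DMSO library. CEBPG came second in the first DMSO library, the first 2 h library and the 6 h and 12 h libraries. CEBPB and CEBPD lay close together in the first 2 h library, at 16.7 and 16.5 FPKM, and CEBPB and CEBPG in the recovered 2 h library, at 17.9 FPKM each. In DMSO, the means were 2.11 ± 0.316 for CEBPA, 20.1 ± 11.2 for CEBPB, 48.2 ± 53.6 for CEBPD, 16.3 ± 4.61 for CEBPG and 38.3 ± 7.27 FPKM for CEBPZ (SD, n = 2). The order of CEBPG, CEBPB and CEBPD in DMSO was therefore within the spread between the libraries.

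**Figure D1:**
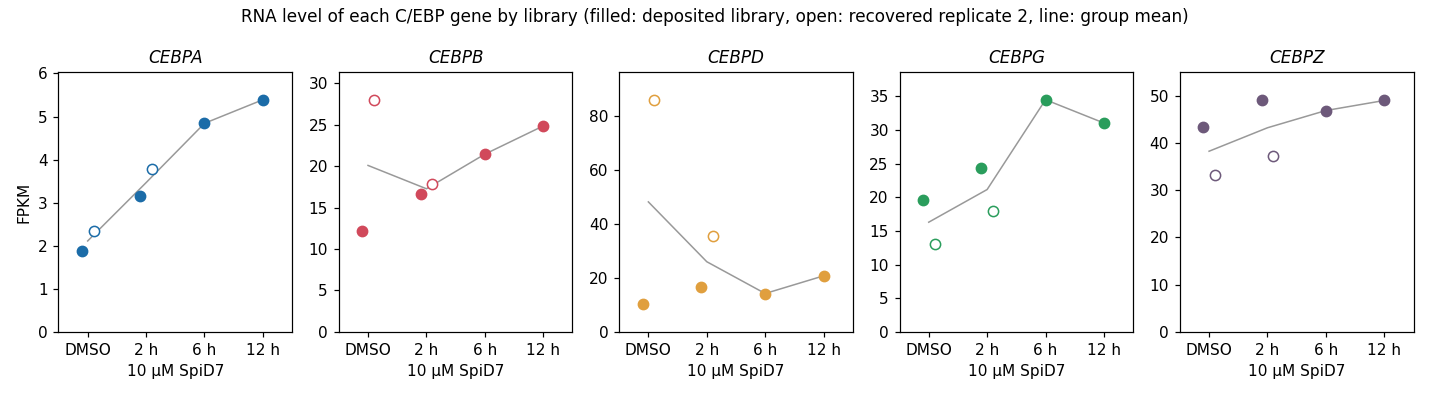
FPKM (vertical axis, linear from 0, a separate scale for each gene) of CEBPA, CEBPB, CEBPD, CEBPG and CEBPZ in DMSO and after 2, 6 and 12 h of SpiD7. Filled points are deposited libraries, open points are recovered replicates and lines join group means. CEBPA runs from 1.89 to 5.39 FPKM without overlap between DMSO and any time point, whereas the DMSO libraries of CEBPD stand at 10.3 and 86.1.

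CEBPA encodes C/EBPα, a factor of differentiation and cell cycle exit that is made as long and short proteins from 1 intronless RNA, which these data cannot tell apart. The gene lies on the minus strand of chromosome 19 at positions 33299934 to 33302564 of GRCh38, as a single exon (GENCODE 29). It was at 1.89 and 2.33 FPKM in the first and the recovered DMSO library, 3.15 and 3.78 after 2 h, 4.84 after 6 h and 5.39 after 12 h. Every SpiD7 library lay above both DMSO libraries, and the values went up at each step. Such an ordered, non-overlapping course was found in 2.46% of the 13287 genes tested. The log2 difference from the DMSO mean was 0.69 (SE 0.21) at 2 h, 1.17 (SE 0.26) at 6 h and 1.32 (SE 0.26) at 12 h on the log2(FPKM + 0.1) scale. At 2 h the first pair of libraries gave 0.71 and the recovered pair 0.67. At 12 h it stood at 2.86-fold the first and 2.31-fold the recovered DMSO library. The unadjusted limma p-values were 0.0378, 0.0147 and 0.0101, and adjusted over all genes (Benjamini-Hochberg) they were 1, 0.680 and 0.464, so that CEBPA passed the test at no time point.

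The 250 bases before the start of CEBPA are shown because this gene had the most ordered course of the 5. They were read from RefSeq (GRCh38.p14, minus strand, chr19:33302535-33302784), and the capitals mark TATAAA, which begins 30 bases before the start.

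CEBPA: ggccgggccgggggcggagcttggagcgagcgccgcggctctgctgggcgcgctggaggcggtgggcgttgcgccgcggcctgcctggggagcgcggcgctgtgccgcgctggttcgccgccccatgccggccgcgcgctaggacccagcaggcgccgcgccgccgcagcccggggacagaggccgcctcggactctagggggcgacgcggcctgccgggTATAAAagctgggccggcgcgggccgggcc

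This stretch had a GC content of 81.2%, against a median of 58% over the promoters of all genes. TATAAA, which was added after the sequences were seen, was found on either strand in 11.5% of 35116 RefSeq promoters of the same length (250 bases before to 50 after the start). None of the C/EBP motif TTGCNNAA (10.5% of promoters), the cyclic AMP element TGACGTCA (1.85%), the heat shock pair GAANNTTC (6.77%) or the STAT motif TTCNNNGAA (7.66%) was in the windows of CEBPA, CEBPB, CEBPG and CEBPZ, the 4 genes of the 5 that the promoter table held. CEBPD was not among them.

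The nearest profiles to that of CEBPA over the 6 libraries included those of HIC2 and MTF1, at Euclidean distances of 0.105 and 0.215 between log2 values centred on each gene. HIC2, a transcriptional repressor, went from 1.55 and 2.02 FPKM in DMSO to 4.26 at 12 h. The metal-responsive factor MTF1 was at 3.28 and 4.13 FPKM in DMSO and at 8.02 at 12 h. The transcript neighbouring CEBPA, CEBPA-AS1, lies 292 bases away in the table and did not follow it at 2 h and 6 h. CEBPA-AS1 stood at 1.30 and 1.30 FPKM in DMSO, 1.17 and 1.33 after 2 h and 0.980 after 6 h. At 12 h it was at 2.00, above both DMSO libraries as CEBPA was.

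CEBPG encodes C/EBPγ, the partner of other C/EBP proteins and of ATF4. It lies on the plus strand of chromosome 19 at positions 33373330 to 33382686, with 70765 bases between it and CEBPA. CEBPG was at 19.6 and 13.04 FPKM in the first and the recovered DMSO library, 24.4 and 17.9 after 2 h, 34.5 after 6 h and 31.0 after 12 h. The recovered 2 h library lay below the first DMSO library, so that the groups overlapped at 2 h, while the 6 h and 12 h libraries lay above both DMSO libraries. Within pairs the 2 h library was higher in both cases, by 0.32 and 0.45 on the log2 scale. The log2 difference from the DMSO mean was 0.39 (SE 0.32) at 2 h, 1.11 (SE 0.39) at 6 h and 0.95 (SE 0.39) at 12 h, with limma adjusted p-values of 1, 0.917 and 0.598. Unlike CEBPA, its fold at 12 h was smaller against the first DMSO library (1.59) than against the recovered one (2.38).

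A stretch of 30 bases before the second RefSeq start of CEBPG is shown because it holds the only match to the C/EBP-ATF composite motif TGATGNAA among the 4 genes (GRCh38.p14, plus strand, chr19:33374060-33374089). The capitals mark the match, which begins 42 bases before that start.

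CEBPG: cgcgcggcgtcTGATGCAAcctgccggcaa

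The composite motif was in 3.62% of all promoters. Before its other start, CEBPG had CCAAT on the reverse strand at 85 and at 24 bases, a motif found in 34.6% of promoters and, among these genes, also in CEBPB. A match describes letters and not binding.

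The profiles nearest to that of CEBPG were GLA, LRRC8C and AP4B1, at distances of 0.131, 0.134 and 0.178. GLA, the lysosomal alpha-galactosidase, was at 31.5 and 21.7 FPKM in DMSO, 60.6 after 6 h and 53.2 after 12 h. Among the 5 C/EBP genes themselves, CEBPG and CEBPZ were nearest (0.740), followed by CEBPA and CEBPG (0.878), and CEBPD and CEBPG were farthest apart (3.38).

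CEBPB encodes C/EBPβ, an inducible factor of inflammatory genes that is translated into activating and inhibitory forms from 1 intronless RNA, and these forms are not separated here. The gene lies on the plus strand of chromosome 20 at positions 50190734 to 50192689. CEBPB was at 12.2 and 28.0 FPKM in the first and the recovered DMSO library, 16.7 and 17.9 after 2 h, 21.4 after 6 h and 24.8 after 12 h. All 4 SpiD7 libraries lay between the DMSO libraries, which differed 2.30-fold. Against the first DMSO library alone the SpiD7 values went up with time, to 2.04-fold at 12 h. Set against the recovered DMSO library, each of them was lower, with 0.887-fold at 12 h. The log2 difference from the DMSO mean was -0.10 (SE 0.48), 0.21 (SE 0.59) and 0.43 (SE 0.59) at 2, 6 and 12 h, with limma adjusted p-values of 1, 0.984 and 0.868. The authors' mean columns gave 21.1 FPKM for DMSO and 17.6 for 2 h.

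The 30 bases around TATAAA before the second RefSeq start of CEBPB are shown beside that of CEBPA, since only these 2 of the 4 genes held the motif (GRCh38.p14, plus strand, chr20:50190789-50190818). The match, in capitals, begins 29 bases before the start.

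CEBPB: acgggccgccctTATAAAtaaccgggctca

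Profiles nearest to that of CEBPB were CDC42EP2 (0.265), ZFP36L1 (0.278) and FLVCR2 (0.344). ZFP36L1, which binds AU-rich RNA and promotes its decay, was at 22.1 and 46.1 FPKM in DMSO and 37.9 at 12 h. The table also lists LOC101927559, whose NCBI gene number is that of CEBPB-AS1, the antisense gene next to CEBPB. LOC101927559 was at 0.159 and 0.400 FPKM in DMSO, 0.819 and 0.932 after 2 h, 1.49 after 6 h and 1.17 after 12 h. Each SpiD7 library thus lay above both DMSO libraries, but its mean was under the minimum of 1 FPKM and it was not tested. The deposited locus of LOC101927559 lies 1999 bases from that of CEBPB and does not overlap it. GENCODE places CEBPB-AS1 over part of CEBPB on the opposite strand, by gene span. Only where such partners overlap can their reads not be told apart in libraries made without strand marking.

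**Figure D2:**
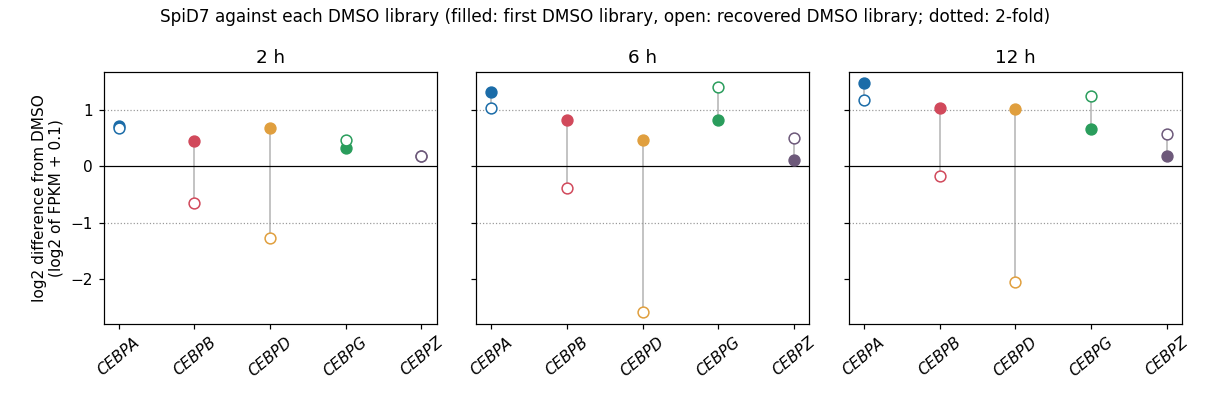
Log2 differences (vertical axis, log2 of FPKM + 0.1) of the 5 genes at 2, 6 and 12 h. At 6 h and 12 h the single SpiD7 library is set against the first (filled) and the recovered (open) DMSO library, and at 2 h the first pair (filled) and the recovered pair (open) are shown. CEBPA is at 1.17 and 1.47 at 12 h, whereas CEBPD is at 1.00 against one DMSO library and -2.05 against the other.

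CEBPD encodes C/EBPδ, a factor of the acute phase response that is induced by cytokines through STAT3. It is an intronless gene on the minus strand of chromosome 8 at positions 47736909 to 47739086. CEBPD was at 10.3 FPKM in the first DMSO library and 86.1 in the recovered one, 16.5 and 35.6 after 2 h, 14.2 after 6 h and 20.8 after 12 h. The lowest and the highest of the 6 values were both DMSO libraries, and every SpiD7 library lay between them. The 8.34-fold difference between the DMSO libraries was exceeded upward by 146 of the 13287 genes. The recovered 2 h library was 2.15-fold higher than the first. CEBPD was higher after 2 h in the first pair (0.67 on the log2 scale) and lower in the recovered pair (-1.27). At 6 h it was 1.38-fold the first DMSO library and 0.165-fold the recovered one. The log2 difference from the DMSO mean was -0.30 (SE 1.24), -1.06 (SE 1.52) and -0.52 (SE 1.52) at 2, 6 and 12 h, with limma adjusted p-values of 1, 0.977 and 0.946. No direction can be given for CEBPD, since it depends on the DMSO library. The authors' means were 50.8 FPKM for DMSO and 26.5 for 2 h.

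The nearest profiles to that of CEBPD were those of CX3CL1 (0.509), RAB37 (0.703) and KIAA1652 (0.710). CX3CL1, a chemokine of epithelium and endothelium that inflammatory cytokines induce, was at 0.529 and 5.09 FPKM in DMSO, 0.652 and 2.45 after 2 h, 0.660 after 6 h and 0.989 after 12 h. It shared with CEBPD the high recovered libraries of both groups.

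CEBPZ encodes a CCAAT-binding protein of ribosome assembly. It has 16 exons on the minus strand of chromosome 2 at positions 37201612 to 37231713. CEBPZ was at 43.4 and 33.1 FPKM in DMSO, 49.2 and 37.3 after 2 h, 46.9 after 6 h and 49.0 after 12 h. At 2 h the groups overlapped, and the 6 h and 12 h libraries lay above both DMSO libraries. Both pairs gave a small positive difference at 2 h, 0.18 and 0.17 on the log2 scale. The log2 difference from the DMSO mean was 0.18 (SE 0.26), 0.31 (SE 0.32) and 0.37 (SE 0.32) at 2, 6 and 12 h, with limma adjusted p-values of 1, 0.977 and 0.792. Its nearest profiles were RNMTL1 (0.0574), TAF3 (0.0777) and MAP2K4 (0.0790), all with small differences between libraries. CEBPZ-AS1, the older name of CEBPZOS, shares 267 exon bases with CEBPZ on the opposite strand and the same deposited locus. CEBPZ-AS1 was at 17.8 and 14.6 FPKM in DMSO, 17.1 and 12.8 after 2 h, 13.7 after 6 h and 13.8 after 12 h, so that it did not share the higher level of CEBPZ at 6 h and 12 h.

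At 2 h, 0 of the 5 genes exceeded the DMSO mean more than 2-fold, against 2.32% of all genes tested, and 0 were more than 2-fold lower, against 0.662%. At 6 h, CEBPA and CEBPG were more than 2-fold higher (background 5.66%) and CEBPD more than 2-fold lower (3.1%). At 12 h, only CEBPA was more than 2-fold higher (6.48%) and none was lower (3.76%). These counts depended on the DMSO library used. Against the first alone, CEBPA (1.47), CEBPB (1.03) and CEBPD (1.00) were past 2-fold at 12 h, and against the recovered one alone CEBPA (1.17), CEBPG (1.24) and CEBPD (-2.05). The share of all genes past 2-fold against a single DMSO library was not computed, so these counts have no background. CEBPA alone lay above both DMSO libraries at 2 h, as did 13.7% of genes. CEBPA, CEBPG and CEBPZ did so at 6 h (31.6% of genes) and at 12 h (30.1%), which with a single SpiD7 library is a common outcome. None of the 5 lay below both DMSO libraries, against 8.1%, 29.2% and 35.6% of genes at 2, 6 and 12 h. CEBPA, CEBPG and CEBPZ were higher at 2 h in both pairs, as were 31.5% of genes, and CEBPB and CEBPD were higher in the first pair and lower in the recovered pair, as were 18.4%. By limma, 0 of the 5 had an adjusted p-value under 0.05 at any time, and CEBPA alone (1 gene) was under 0.05 before adjustment, which held at each time. Over all genes, 2.84%, 5.55% and 9.19% were under 0.05 before adjustment at 2, 6 and 12 h. After adjustment the same test called 0.0226%, 0.294% and 0.339% of all genes at 2, 6 and 12 h.

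CEBPB and CEBPD belonged to the 8.72% of genes with a level over 2-fold that of the first DMSO library in the recovered one, and CEBPD was also among the 6.43% for which this held at 2 h. The difference between DMSO libraries had a median of -0.06 on the log2 scale over all genes. It was 3.05 for CEBPD, 1.20 for CEBPB, 0.29 for CEBPA, -0.39 for CEBPZ and -0.58 for CEBPG.

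**Figure D3:**
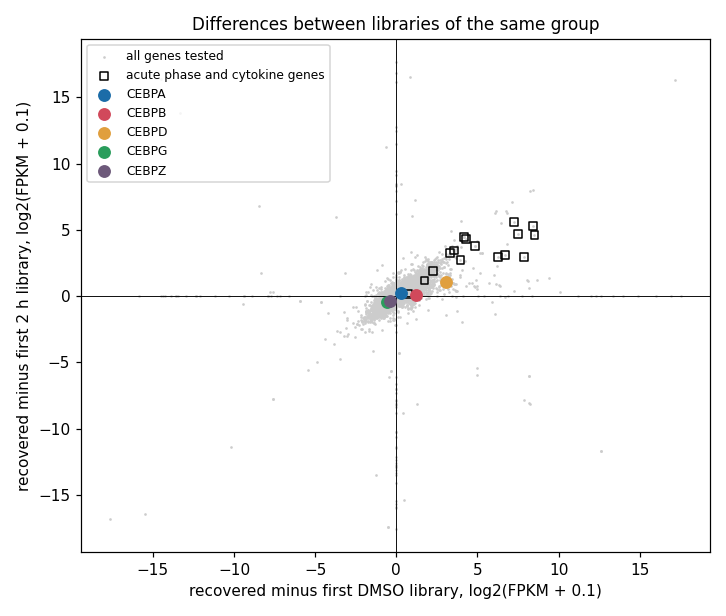
Difference between the recovered and the first library in DMSO (horizontal axis) and at 2 h (vertical axis), both on log2(FPKM + 0.1), for 13287 genes (grey), 16 acute phase and cytokine genes (squares) and the 5 C/EBP genes (coloured). CEBPD, at 3.05 and 1.10, lies toward the acute phase and cytokine genes, while the other C/EBP genes stay nearer the origin.

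The summed FPKM of the 4 leucine zipper genes CEBPA, CEBPB, CEBPD and CEBPG was 43.9 in the first DMSO library and 130 in the recovered one, 60.7 and 75.1 after 2 h, 75.0 after 6 h and 82.1 after 12 h. CEBPD made up 23.5% of that sum in the first DMSO library and 66.5% in the recovered one, followed by 27.2% and 47.3% after 2 h, 19.0% after 6 h and 25.3% after 12 h. CEBPG was the largest share in the first DMSO library (44.5%), the first 2 h library (40.2%) and the libraries of 6 h (46.0%) and 12 h (37.8%), and was 10.1% and 23.8% in the recovered DMSO and 2 h libraries. CEBPB kept to between 21.6% and 30.3%. CEBPA accounted for 4.30% and 1.80% in DMSO and for 6.57% at 12 h. The share of CEBPD thus differed more between the DMSO libraries than between the first DMSO library and any SpiD7 library.

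**Figure D4:**
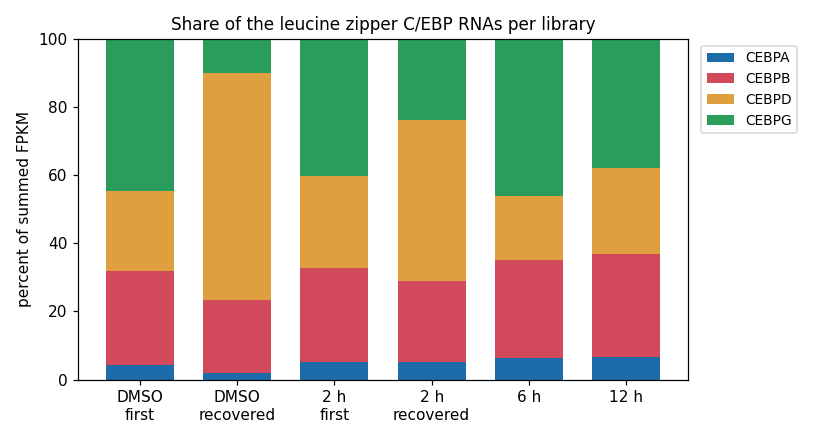
Percent of the summed FPKM of CEBPA, CEBPB, CEBPD and CEBPG (stacked bars, vertical axis from 0 to 100) in each of the 6 libraries. CEBPD takes 66.5% in the recovered DMSO library and between 19.0% and 27.2% in the first DMSO, first 2 h, 6 h and 12 h libraries.

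Of the family genes outside the 5, CEBPE, the granulocyte factor, was listed at 0 in every library but the recovered 2 h library (0.0678 FPKM). DDIT3 was at 13.9 and 46.3 FPKM in DMSO, 99.1 and 188 after 2 h, 203 after 6 h and 124 after 12 h, without overlap between DMSO and SpiD7. DDIT3 was below CEBPG (19.6) and CEBPZ (43.4) in the first DMSO library and below CEBPD (86.1) alone in the recovered one, and in every SpiD7 library it exceeded each of the 5 C/EBP genes. Its deposited locus is shared with MARS, and its log2 differences of 2.42, 2.99 and 2.29 at 2, 6 and 12 h had limma adjusted p-values of 1, 0.836 and 0.598.

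Dimer partners were taken as DDIT3, ATF4, ATF5, ATF3, FOS, JUN and BATF. Of these 7, 3 were more than 2-fold higher than the DMSO mean at each time point and 0 were lower. Over all genes, 2.32%, 5.66% and 6.48% were higher at 2, 6 and 12 h. Against each DMSO library, at 2 h within each pair, DDIT3 alone (1 gene) was more than 2-fold higher, a criterion for which the share of all genes was not computed. FOS and ATF3, the others counted, were at -1.92 and -1.64 against the recovered DMSO library at 12 h. The median log2 difference of the 7 was 0.63, 0.96 and 0.89 at 2, 6 and 12 h, beside -0.01, 0.03 and -0.05 over all genes. By limma, 0 of the 7 passed the adjusted threshold at any time and unadjusted p-values under 0.05 were found for 1, 2 and 1 of them at 2, 6 and 12 h, beside 2.84%, 5.55% and 9.19% of all genes. At 12 h the median was 1.34 against the first DMSO library but -0.15 against the recovered one. FOS, a subunit of AP-1, was at 2.34 and 373 FPKM in DMSO, 263 and 338 after 2 h, 164 after 6 h and 98.7 after 12 h. BATF, a lymphoid member of the AP-1 family, remained between 5.83 and 7.43 FPKM. ATF5 was between 17.1 and 29.98 FPKM. DDIT3 was the member with the largest difference at 12 h.

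The regulators of C/EBP RNA or protein comprised 12 genes. None was more than 2-fold different at 2 h, against 2.32% of all genes higher and 0.662% lower. At 6 h, 1 was higher (5.66%) and 1 lower (3.1%). At 12 h, 1 was higher (6.48%). Their medians were 0.01, -0.14 and -0.18. TRIB1, which brings C/EBPα to the ubiquitin ligase COP1 for degradation, was at 18.1 and 203 FPKM in DMSO, 95.9 and 143 after 2 h, 238 after 6 h and 253 after 12 h. The 6 h and 12 h libraries lay above both DMSO libraries, which themselves differed widely. TRIB2, its relative with the same role, was at 14.8 and 41.7 FPKM in DMSO and at 12.5 at 12 h. FBXW7, the ubiquitin ligase subunit that recognises phosphorylated C/EBP proteins, had 7.14 and 5.85 FPKM in DMSO and 11.9 at 12 h, above both. STAT3, the activator of CEBPD, was at 28.2 and 32.9 FPKM in DMSO and 20.2 at 12 h, below both. With limma, 0 of the 12 passed the adjusted threshold, and 1, 1 and 2 had an unadjusted p-value under 0.05 at 2, 6 and 12 h (2.84%, 5.55% and 9.19% of all genes).

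Among the genes with C/EBP-ATF elements, 10 of 11 passed the filter on low values, FGF21 being the exception. More than 2-fold higher than the DMSO mean were 4 after 2 h, 6 after 6 h and 6 after 12 h, and 0 were lower. Of all genes, 2.32%, 5.66% and 6.48% were higher and 0.662%, 3.1% and 3.76% lower. Against each DMSO library, at 2 h within each pair, 3, 4 and 4 were more than 2-fold higher. The share of all genes that met this criterion was not computed. ATF3 was counted as higher at each time but was at 1.06 and 99.4 FPKM in DMSO and at 31.9 at 12 h. The list had medians of 0.55, 1.76 and 1.34, and at 12 h 2.09 against the first and 1.44 against the recovered DMSO library. SESN2, an inhibitor of mTORC1 signaling, was at 1.89 and 2.94 FPKM in DMSO, 8.77 and 9.40 after 2 h, 27.3 after 6 h and 38.6 after 12 h. CHAC1, which degrades glutathione, was at 0.738 and 2.08 FPKM in DMSO, 15.5 and 14.2 after 2 h, 31.2 after 6 h and 12.4 after 12 h. For both genes, every SpiD7 library lay above the DMSO libraries. The amino acid transporters SLC7A1 and SLC38A2 had the smallest log2 differences of the list at 12 h, -0.14 and 0.44. By limma, 0 of the 10 passed the adjusted threshold at any time, and 3, 5 and 3 had an unadjusted p-value under 0.05 at 2, 6 and 12 h (2.84%, 5.55% and 9.19% of all genes). DDIT3 and ATF3 are in this list and in that of the dimer partners.

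Acute phase and cytokine genes with C/EBP sites had, like CEBPD, a median whose sign depended on the DMSO library. Of 21 listed genes, 16 passed the filter. In the recovered DMSO library 15 of the 16 were more than 2-fold higher (8.72% of all genes), with a median difference of 4.57 on the log2 scale. More than 2-fold below the DMSO mean were 2 genes after 2 h, 13 after 6 h and 14 after 12 h, and 0 were higher. Of all genes, 0.662%, 3.1% and 3.76% were more than 2-fold lower. The medians were -0.25, -1.84 and -1.77. With the first DMSO library as reference the median at 12 h was 0.45, and with the recovered one it was -5.04. SAA2, an acute phase apolipoprotein, was at 2.11 and 40.4 FPKM in DMSO, 1.46 and 33.7 after 2 h, 1.15 after 6 h and 0.181 after 12 h. SAA1, its close paralog, was at 5.55 and 110 FPKM in DMSO and 0.869 at 12 h. Both were lower at 12 h than either DMSO library, but reads of near-identical paralogs can be split between them. Of the 16 genes, 4 lay below both DMSO libraries at 6 h (29.2% of all genes) and 6 at 12 h (35.6%). Above both lay 0 at either time, against 31.6% of all genes at 6 h and 30.1% at 12 h. The mitochondrial superoxide dismutase SOD2 was at 35.0 and 168 FPKM in DMSO and 44.0 at 12 h, between the DMSO libraries. HP, the haptoglobin gene, had 1.13 and 3.99 FPKM in DMSO and 1.68 at 12 h. By limma, 0 of the 16 passed the adjusted threshold, and 0, 0 and 1 had an unadjusted p-value under 0.05 at 2, 6 and 12 h (2.84%, 5.55% and 9.19% of all genes).

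The growth arrest partners of C/EBPα were CDKN1A, CDK2, CDK4, RB1, E2F1 and MYC. More than 2-fold higher were 1 after 2 h, 1 after 6 h and 2 after 12 h (2.32%, 5.66% and 6.48% of all genes). The medians were 0.02, 0.27 and -0.20. The sign of the 12 h median changed with the reference, from -0.55 (first DMSO library) to 0.21 (recovered one). CDKN1A alone (1 gene) was past 2-fold at 12 h with each reference, and the share of all genes for which this held was not computed. MYC, the other gene counted at 12 h, exceeded the recovered DMSO library by only 0.38 on the log2 scale. CDKN1A, the cyclin-dependent kinase inhibitor p21, was at 2.71 and 11.1 FPKM in DMSO, 16.7 and 23.1 after 2 h, 37.7 after 6 h and 24.1 after 12 h, above both DMSO libraries throughout. MYC, a driver of proliferation that opposes C/EBPα, was at 105 and 279 FPKM in DMSO, 225 and 184 after 2 h, 318 after 6 h and 363 after 12 h, so that it passed both DMSO libraries at 6 h and 12 h only. RB1 was at 20.4 and 17.0 FPKM in DMSO and 12.2 at 12 h, and CDK4 at 124 and 88.6 in DMSO and 80.3 at 12 h. With limma, 0 of the 6 passed the adjusted threshold. At 2, 6 or 12 h, 0 of them had an unadjusted limma p-value under 0.05 (2.84%, 5.55% and 9.19% of all genes).

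The nucleolar assembly genes, the company of CEBPZ, showed no member past 2-fold at any time among 16. Of all genes, 2.32%, 5.66% and 6.48% were more than 2-fold higher and 0.662%, 3.1% and 3.76% lower. The medians of the 16 were -0.07, 0.36 and 0.03. At 12 h the median was -0.43 against the first and 0.50 against the recovered DMSO library. NOP58, a core protein of box C/D ribonucleoproteins, was at 114 and 80.2 FPKM in DMSO, 155 and 118 after 2 h, 168 after 6 h and 164 after 12 h. MAK16 was at 7.10 and 4.05 FPKM in DMSO and 8.22 at 12 h. WDR12 and NOP14 had log2 differences of -0.26 and -0.25 at 12 h. By limma, 0 of the 16 passed the adjusted threshold. At 2, 6 or 12 h, 0 of them had an unadjusted limma p-value under 0.05 (2.84%, 5.55% and 9.19% of all genes).

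**Figure D5:**
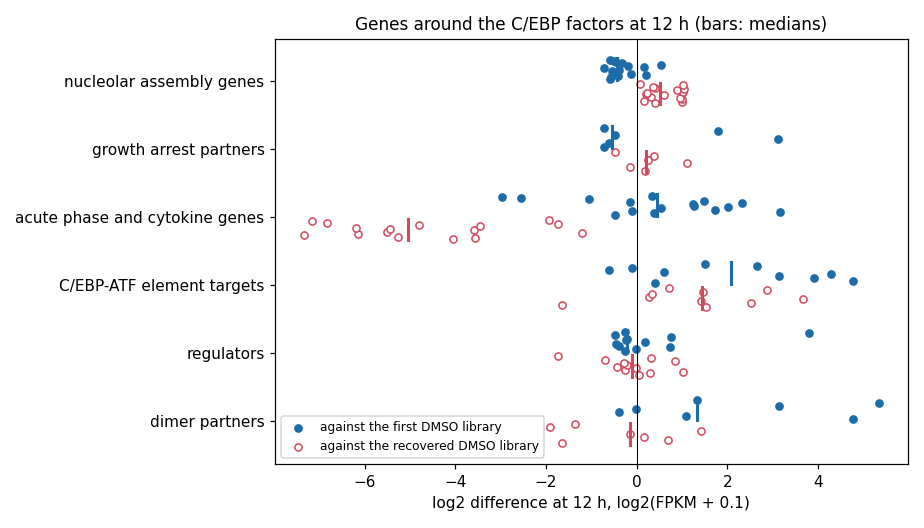
Log2 difference at 12 h (horizontal axis, log2 of FPKM + 0.1) of each gene of the 6 lists against the first DMSO library (filled, blue) and the recovered one (open, red), with vertical bars at the medians. The acute phase and cytokine genes shift from a median of 0.45 to -5.04 with the DMSO library, while the C/EBP-ATF element targets keep positive medians of 2.09 and 1.44.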

How the data were processed

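OVCAR5 RNA was prepared by the authors with a kit that does not mark strand and sequenced as single reads. Per the methods and the submitters' processing notes, reads were trimmed with Trim Galore, aligned with TopHat2 2.0.8 and quantified with Cufflinks and Cuffdiff 2.1.1. The loci in the table are human, although a mouse build is stated in the methods, and the gene annotation is not given in the sources used here. The authors deposited 4 comparisons with an FPKM column for each side, beside their own log2 fold changes, p-values and q-values, which were not used.

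In the columns named for replicate 2, 0 of the rows above 0 in the first library were at 0, and rows reached a sharp lower limit at 0.526 (DMSO) or 0.509 (2 h) of the first library, so these columns were taken as means of both libraries with equal weights. Replicate 2 was recovered by subtraction, and a remainder under 0.2% of the mean was set to 0. The 6 h and 12 h comparisons were scaled to the first through their shared DMSO library (factors 0.972 and 0.994). Rows of the same symbol were summed. The 13287 genes whose mean over 6 libraries was 1 FPKM or more were fitted on log2(FPKM + 0.1), a scale that makes changes of low genes look smaller, with limma 3.58.1 in R 4.3.3 (2 residual degrees of freedom, from DMSO and 2 h, with the single 6 h and 12 h libraries assumed to vary like them, two-sided, Benjamini-Hochberg adjusted). The script was tested on data with known answers. Those simulated for the fit gave every gene the same spread between libraries, unlike these data.

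The 5 genes, 6 gene lists and 4 marker lists were chosen with earlier results of these data known. From each list the genes highest and lowest at 12 h were named, and for each C/EBP gene the 3 nearest profiles, of which 1 is not reported here. Read counts are not in the table, so depth is unknown and no counting error is given. A listed 0 may stand for an estimate that failed. Alternatives were other pseudocounts, filters and scalings, rows kept apart, an intensity trend, a replicate block and leaving out each DMSO or 2 h library. The single 6 h and 12 h libraries were not left out.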

Additional observations from a re-analysis of the deposited data

How the results depend on the processing

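For the 5 C/EBP genes, 162 log2 differences were computed under the alternatives, of which 0 reached an adjusted limma p-value under 0.05 (lowest 0.187, CEBPA at 12 h) and 9 had another sign. All 9 arose when a library was left out, and 0 of the 122 values with every library kept changed sign. Without the recovered DMSO library, CEBPD was at 1.22, 0.46 and 1.00 and CEBPB at 0.50, 0.81 and 1.03 at 2, 6 and 12 h. Without the first DMSO library, CEBPD was at -1.82, -2.59 and -2.05 and CEBPB at -0.70, -0.38 and -0.17. CEBPZ at 2 h ranged from -0.0239 (without the first 2 h library; -0.0194 without the recovered DMSO library) to 0.37, and CEBPD was at 0.25 without the first 2 h library. With 1 library left out, CEBPA ranged from 0.54 to 0.84 at 2 h, 1.02 to 1.31 at 6 h and 1.17 to 1.47 at 12 h. CEBPG ranged from 0.10 to 0.68, 0.82 to 1.40 and 0.66 to 1.24. For 6 h and 12 h the library left out was always a DMSO library. The number of C/EBP genes past 2-fold ranged from 0 to 1 at 2 h, from 1 to 3 at 6 h and was 3 at 12 h with either DMSO library left out. It was 0 at 12 h with a mean FPKM of at least 5, which removes CEBPA. The share of all genes past 2-fold was not computed under the alternatives.

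Over all genes, the 3 called at 2 h became 1 with pseudocount 1, with upper-quartile scaling and with an intensity trend, 6 with pseudocount 0.01, 0 without the filter, and between 0 and 21 with a library left out. Without the filter 96 genes were called at 6 h and 263 at 12 h. The cause was not tested. With a replicate block, 0 genes were called at 2 h by limma, while 14.1% of all genes had an unadjusted p-value under 0.05. These included CEBPA, with an unadjusted p-value of 0.0042 (adjusted 0.329), and CEBPG, with 0.0247 (adjusted 0.333). Same-numbered DMSO and 2 h libraries deviated together over genes (correlation 0.369), but the labels do not say that a number marks a shared batch. The block was not run at 6 h and 12 h, whose labels have no number.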
